A study of Mus musculus with 122 samples.

Results

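The hearts described here are 4 adult mouse hearts that received an active mitochondrial base editor, 2 taken 24 weeks after injection (active hearts 7 and 8) and 2 taken at 3 weeks (active hearts 3 and 4), with the numbers being those of the mice. They were chosen by the treatment and the time given in the sample labels, and they are 4 of the 11 adult hearts compared here and of 122 samples in the series. The time-matched controls were 4 hearts at 24 weeks (vehicle hearts 9 and 10, inactive hearts 11 and 12) and 3 at 3 weeks (vehicle hearts 1 and 2, inactive heart 5). The sheet of base counts of inactive heart 6 matched 2 samples and was not used here.

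All adult mice were male C57BL/6J injected through the tail vein at an age of 8 weeks, so the hearts were taken at 32 and 11 weeks of age, and time after injection and age cannot be told apart within the active hearts alone. Active hearts received DdCBE-Nd3-9577-1 at 1e12 vector genomes per monomer, with the light-strand and heavy-strand monomers in separate AAV9.45 particles, a cardiotropic serotype, and each monomer driven by the CMV promoter. Inactive hearts received the same pair with a catalytically dead deaminase, and vehicle hearts received no vector. DNA came from whole heart tissue, so a larger share of cells reached by the vector and more edited molecules per cell cannot be told apart. No adult group had more than 4 hearts, and each heart was a different mouse. For one comparison, 20 hearts of C57BL/6J mice of both sexes are used that were injected in the temporal vein on the first day of life with an equal dose and taken at 3 weeks, 7 active and 13 control hearts.

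A DdCBE splits the bacterial toxin DddA and joins each piece to a TALE protein that reads one side of the target, together with an inhibitor of uracil repair. When both TALE proteins bind, the pieces meet over the spacer between them and deaminate cytosines in double-stranded DNA, mainly cytosines that follow a T, and the resulting uracil is copied as T. The spacer here lies in MT-Nd3, which encodes the ND3 subunit of respiratory complex I. Cytosines that follow a T outside the spacer can also be deaminated, and heart muscle, whose adult cells rarely divide, holds many mtDNA copies per cell that go on being replaced.

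The target is shown first because every value below is placed relative to it. In the window chrM:9549-9599 (GRCm38, RefSeq, reference strand) the 19 bp spacer is in capitals, and the sites of the light-strand and heavy-strand TALE proteins flank it.
target window: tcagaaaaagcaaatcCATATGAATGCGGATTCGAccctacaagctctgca
In the spacer alone, chrM:9565-9583, capitals mark the bases of C6, C12, C13, C17 and C18, and a capital G stands for a cytosine on the opposite strand.
spacer with C6, C12, C13, C17 and C18: catatGaatgcGGattCGa
C12 (m.9576) and C13 (m.9577) pair with both Gs of the GGA codon of glycine 40, and editing of both gives the lysine codon AAA (G40K). Editing of C12 alone gives AGA, a stop codon in vertebrate mitochondria, and editing of C13 alone gives a glutamate codon (G40E).

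The other positions on which the results turn lie 5′ of C12 on the reference strand. They are printed 5′ to 3′ on the strand of the cytosine, which is in capitals, to show the base before it and how little else the windows share. The coordinates are chrM:9489-9509, chrM:9472-9492, chrM:9554-9574, chrM:9542-9562 (opposite strand), chrM:9555-9575, chrM:9533-9553, chrM:9490-9510 and chrM:9469-9489 of GRCm38 in the order of the lines.
m.9499: attttattatCcctaacgcta
m.9482: ctgttatcttCattaatattt
m.9564: aaaagcaaatCcatatgaatg
m.9552: tttgctttttCtgagtacaga
m.9565: aaagcaaatcCatatgaatgc
m.9543: ccaaataaatCtgtactcaga
m.9500: ttttattatcCctaacgctaa
m.9479: acactgttatCttcattaata
C12, C6 and C13 are read on the opposite strand, chrM:9566-9586, chrM:9560-9580 and chrM:9567-9587.
C12: gggtcgaatcCgcattcatat
C6: aatccgcattCatatggattt
C13: agggtcgaatCcgcattcata
In 6 of the 8 windows outside the named spacer cytosines and in C6 and C13 the capital follows a T. In m.9500, m.9565 and C12 it is the second C of a TCC. The positions m.9499 and m.9500, m.9564 and m.9565, and C13 and C12 form 3 such TCC runs.

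The amplicon covered chrM:9434-9607, 174 bp, and held 65 C:G positions with calls. Of these, 20 lay in the primers and 10, between m.9507 and m.9531 where neither read of a pair reached well, had under 1000 calls in at least 1 heart. The other 35 C:G positions were tested, and each had between 4550 and 8036 calls in every heart. They comprise 11 cytosines that follow a T, 3 that are the second C of a TCC and 21 others. By place, 8 were in the spacer, 8 in the TALE sites and 19 in the flank 5′ of the TALE sites, and no tested position lay 3′ of them. The percent edited at a position counts T calls where the reference has C, and A calls where it has G, as a share of all base calls there.

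One control stood apart. Vehicle heart 9, at 24 weeks, lay above the 6 other adult controls at 8 of the 11 positions that were higher in active hearts at 24 weeks, and at 2 of the other 24 positions. Its level was 1.03% at C12, against 0.336% to 0.511% in the other 3 controls at 24 weeks, and its excess over them at m.9499 was 22.5% of its excess at C12. The source of those calls was not tested. The gains, the calls at 24 weeks, the ratios to C12, the sums and the mtDNA-wide fold are therefore also given without this heart.

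The active hearts at 24 weeks carried more edited calls than those at 3 weeks at both target bases, and at cytosines up to 77 bp away from the target beyond the change of the controls. At C12 the percent edited was 7.44% and 13.0% in active hearts 7 and 8 at 24 weeks, and 2.04% and 0.960% in active hearts 3 and 4 at 3 weeks. The controls held 1.03%, 0.374%, 0.511% and 0.336% at 24 weeks (hearts 9 to 12) and 0.449%, 0.299% and 0.274% at 3 weeks (hearts 1, 2 and 5). Both 24-week active hearts were thus above every other heart, heart 8 held more than heart 7, and active heart 4 lay below vehicle heart 9. C13 had nearly the same values, with 7.33% and 12.8% in active hearts at 24 weeks and 1.99% and 1.02% at 3 weeks.

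**Figure D1:**
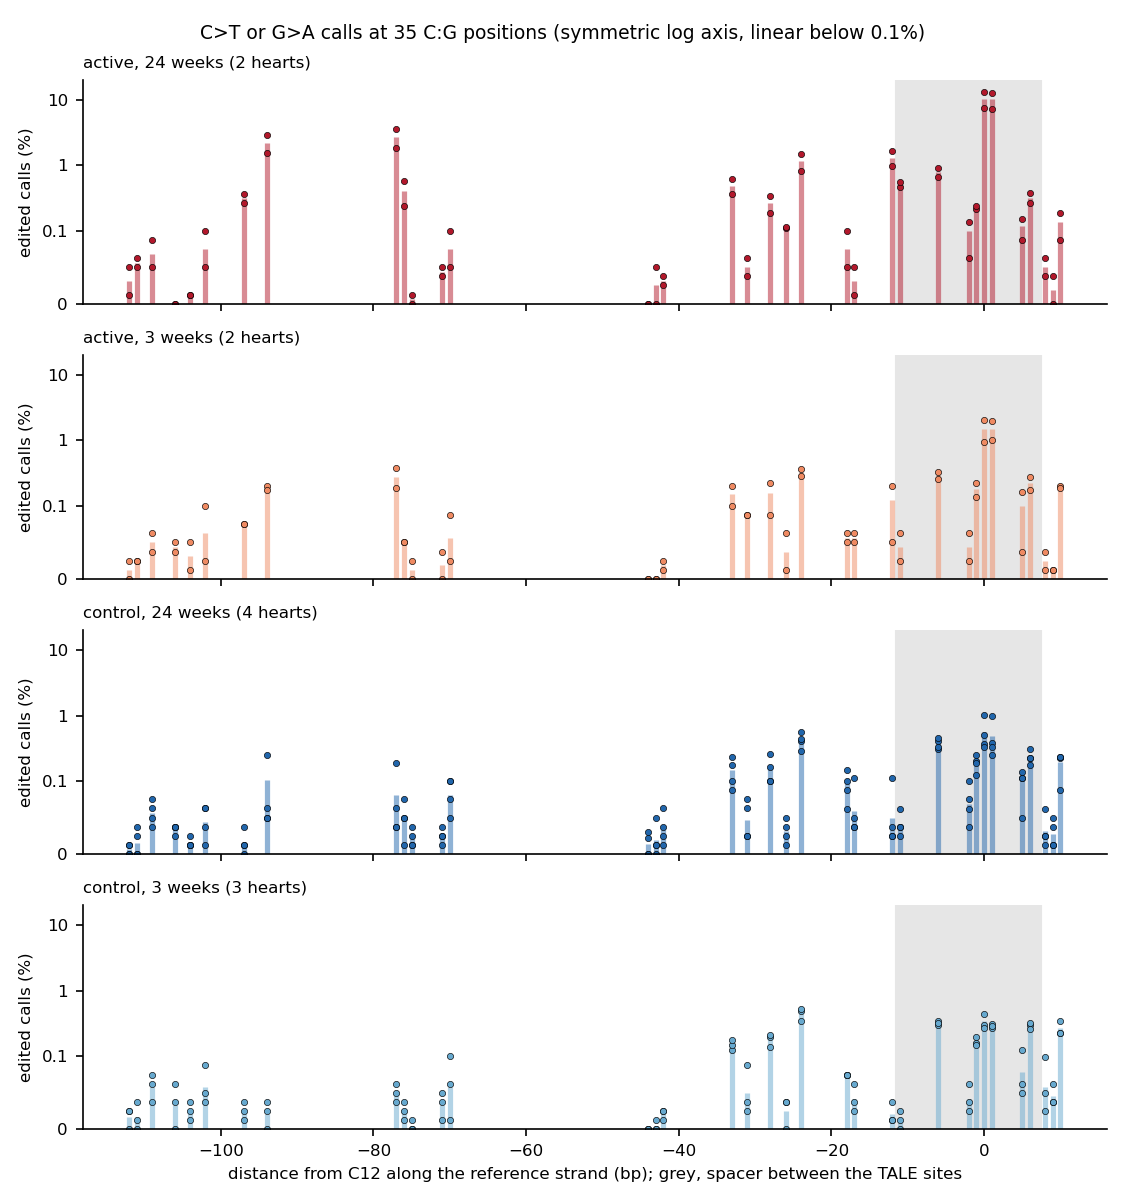
Percent edited (symmetric log axis) at 35 C:G positions by distance from C12 in bp, with a point for each heart and a bar for the group mean. The tall bars outside the grey spacer in the active hearts at 24 weeks stand at the same few distances, up to 2.72% at m.9499, where the 24-week controls averaged 0.0811%.

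A gain over time was defined as the difference between active hearts at 24 and 3 weeks minus the same difference in controls, and was tested by limma on the log2 odds of an edited call, with Benjamini-Hochberg adjustment over the 35 positions. Of the 35 positions, 5 gained edited calls (14.3%) and 1 lost them (2.86%). C12 gained 8.49 percent points (2.33 ± 0.68 SE on the log2 odds scale, limma adjusted p = 0.0178) and C13 gained 8.38 percent points (2.36 ± 0.68, limma adjusted p = 0.0178). The other 3 gains were at m.9499, m.9564 and m.9552, all cytosines that follow a T and all outside the spacer. Without vehicle heart 9, 8 positions were called. The 6 stayed called, with gains of 8.65 percent points at C12, 8.54 at C13 (limma adjusted p = 1.35e-05 each), 2.445 at m.9499 (3.03e-05), 1.18 at m.9564 and 0.902 at m.9552 (0.0036 each), and a change of -0.0437 at m.9470 (0.0306), and m.9543 and m.9479 were added.

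These calls rest on few hearts. The call at C12 was lost without active heart 8 (limma adjusted p = 0.141), without active heart 4 (0.150), and without control hearts 5, 10, 11 or 12 (0.0856, 0.0725, 0.0571 and 0.0548), and the same 6 removals ended the call at C13. In limma without a trend of the variance with level, and in a quasi-binomial logistic model, no position was called (9 and 5 positions at an unadjusted p under 0.05, against 10 in the limma fit as reported), and with arcsine-transformed percents 11 were called. The whole percents deposited for the same hearts gave larger gains, 13.75 percent points at C12 and 12.75 at C13.

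The position with the largest level outside the spacer was m.9499, 77 bp from C12, in the serine codon 14 of ND3, where C>T gives phenylalanine (S14F). It held 1.82% and 3.62% in active hearts 7 and 8, or 146 and 290 edited calls, and 0.374% and 0.187% in active hearts 3 and 4, or 30 and 15 edited calls. Controls held 0.187%, 0.0375%, 0.0624% and 0.0374% at 24 weeks and 0.0624%, 0.0499% and 0.0374% at 3 weeks. The 24-week active hearts were above all others, and active heart 4 at 3 weeks was level with vehicle heart 9 at 24 weeks. The gain was 2.41 percent points (2.92 ± 0.77 SE on the log2 odds scale, limma adjusted p = 0.0178), and it was not called without active hearts 8 or 4 or control hearts 5 or 10.

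At m.9482, 94 bp from C12 and at a synonymous base of codon 8, the 24-week active hearts held 1.52% and 2.92% and the 3-week active hearts 0.200% and 0.175%. The controls held 0.250%, 0.0624%, 0.0499% and 0.0499% at 24 weeks, and 0%, 0.025% and 0.0374% at 3 weeks. The gain of 1.95 percent points was next in size after that of m.9499. It was not called on the log2 odds scale of the test (1.40 ± 0.91 SE, limma adjusted p = 0.307). On that scale active hearts rose by 3.48 and controls by 2.08 from 3 to 24 weeks. Here the controls themselves differed with time, by 0.0822 percent points, the only one of 35 positions to do so (2.86%, limma adjusted p = 0.0209), and without vehicle heart 9 that difference was 0.0333 percent points (0.0634) and the gain 2.001 percent points (0.0553). Without subtraction of the controls, active hearts at 24 weeks exceeded those at 3 weeks by 2.03 percent points (limma on the log2 odds, adjusted p = 0.00019).

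Nearer the target, m.9564 is the last base of the light-strand TALE site and the first base of proline codon 36 (P36S). It held 0.986% and 1.63% in active hearts at 24 weeks and 0.200% and 0.0499% in active hearts at 3 weeks, while controls ranged from 0.0249% to 0.112% at 24 weeks and from 0.0125% to 0.0374% at 3 weeks. Its gain was 1.16 percent points (2.65 ± 0.90 SE on the log2 odds scale, limma adjusted p = 0.0392), and it was not called without active hearts 7, 8 or 4 or control hearts 5, 10, 11 or 12. Its neighbour m.9565, the first base of the spacer and the second C of the same TCC (P36L), held 0.474% and 0.561% in active hearts at 24 weeks and 0.0624% and 0.0249% at 3 weeks, and its gain of 0.446 percent points was not called (limma adjusted p = 0.184).

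m.9552 is a G inside the light-strand TALE site, 24 bp from C12, where G>A replaces the glutamate of codon 32 by lysine (E32K). It had the highest background of the positions outside the spacer that gained, 0.554%, 0.403%, 0.439% and 0.288% in the 24-week controls and 0.340%, 0.491% and 0.529% in the 3-week controls. Active hearts held 0.814% and 1.49% at 24 weeks and 0.364% and 0.289% at 3 weeks, so that the 3-week active hearts lay within or below the range of their controls. The gain was 0.858 percent points (1.88 ± 0.61 SE on the log2 odds scale, limma adjusted p = 0.0374), and it was not called without active hearts 8 or 4 or control hearts 2, 5, 10, 11 or 12. Edited calls there had a mean base quality of 29 in the 24-week active hearts, 15 to 17 in the 3-week active hearts and 11 to 15 in the 24-week controls. Low values were not particular to m.9552. In the same order they were 23 to 30, 13 to 17 and 12 at C6, and 31 to 32, 14 to 27 and 12 to 19 at m.9543.

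C6 (m.9570, E38K), the bystander in the spacer, held 0.673% and 0.910% in active hearts at 24 weeks and 0.262% and 0.324% at 3 weeks, and its gain of 0.446 percent points was not called (limma adjusted p = 0.162). C17 (m.9581) held 0.0872% and 0.149% in active hearts at 24 weeks and 0.0374% and 0.162% at 3 weeks. C18 (m.9582, D42N) held 0.262% and 0.374% at 24 weeks and 0.174% and 0.274% at 3 weeks. Neither C17 nor C18 was called, and at both the active hearts overlapped the controls. The gains nearest to the threshold without passing it were at m.9543, 33 bp from C12 (0.337 percent points, limma adjusted p = 0.0665), and m.9479, 97 bp from C12 (0.247 percent points, 0.0677). Without vehicle heart 9 both were called, with gains of 0.367 percent points at m.9543 (limma adjusted p = 0.0188) and 0.254 at m.9479 (0.0223), while C6 was not (0.457 percent points, 0.107).

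The position that lost edited calls, m.9470, in a cytosine that does not follow a T, rests on very few calls. No edited call was seen among 8012 calls in either active heart at 24 weeks, which allows a share of up to 0.0479% (upper Wilson bound at 95%, as for other counts covering counting error only). Active hearts at 3 weeks had 4 and 3 edited calls there, 24-week controls had 3, 3, 3 and 2, and 3-week controls had 3, 5 and 0. The change was -0.0447 percent points (limma adjusted p = 0.0392), the Wilson intervals of the 24-week active hearts overlapped those of all 9 other hearts, and the call held with only 3 of 11 hearts left out in turn (vehicle hearts 1, 2 and 9).

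**Figure D2:**
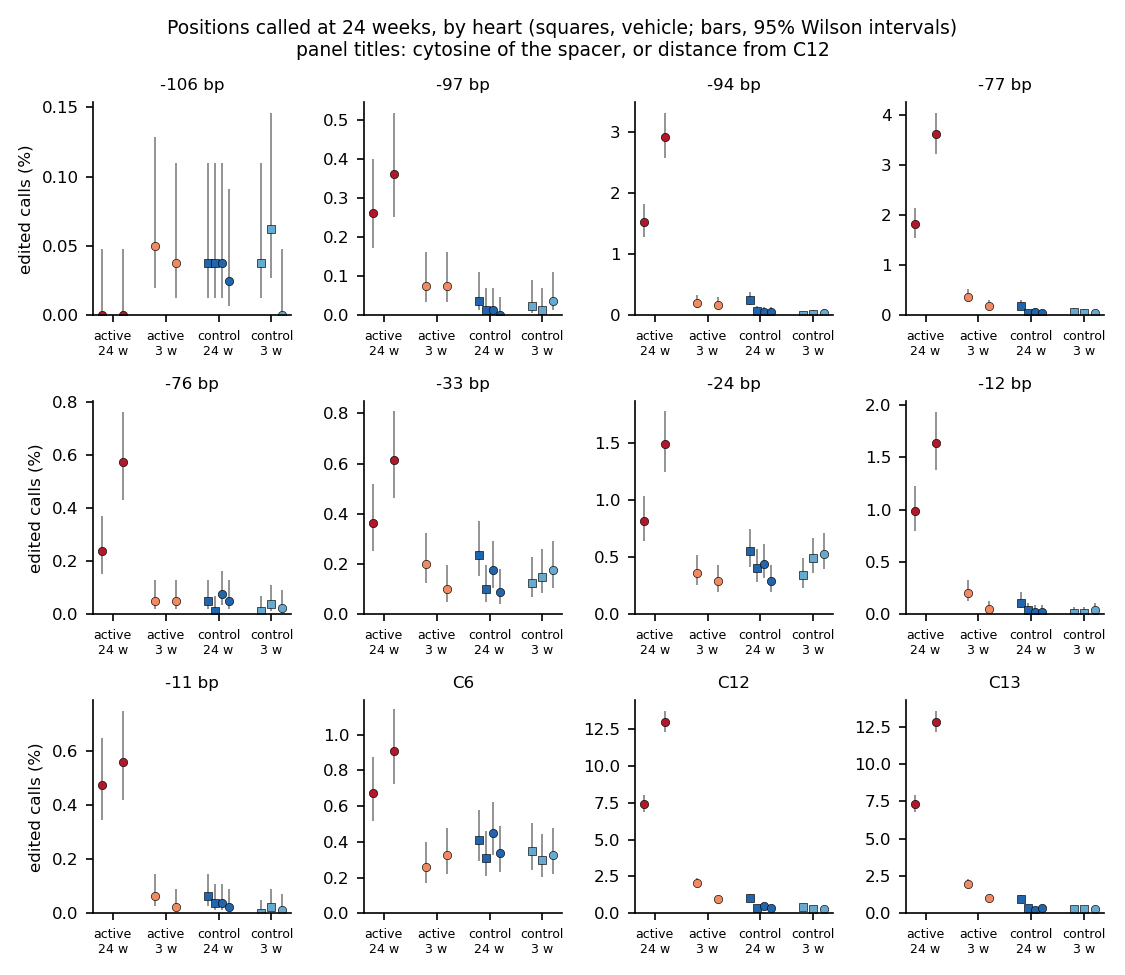
Percent edited in each heart, with 95% Wilson intervals, at the 12 positions called at 24 weeks, with vehicle hearts as squares and panels titled by distance from C12 or by the cytosine of the spacer. In every panel but that at -106 bp (m.9470) both active hearts at 24 weeks lie above the other 9 hearts, and heart 8 above heart 7.

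Set against the 24-week controls alone, active hearts at 24 weeks were higher at 11 of 35 positions (31.4%) and lower at 1, m.9470 (2.86%). The 11 were C6, C12, C13, m.9479, m.9482, m.9499, m.9500, m.9543, m.9552, m.9564 and m.9565. At 3 weeks active hearts were higher than their controls at 5 positions (14.3%), C12, C13, m.9482, m.9499 and m.9564, all of which are among the 11. The number of 3-week calls stayed at 4 or 5 in 7 of 12 alternatives, among them limma without a trend and inactive controls only. It was 0 on percent points, with arcsine-transformed percents and in the quasi-binomial model (0, 5 and 2 at an unadjusted p under 0.05). With vehicle controls only it was 1. On the reverse strand only it was 3, with m.9482 and m.9499 not tested there. Without active heart 3 only m.9482 was called at 3 weeks, and without vehicle heart 2 m.9564 was not. Both 24-week active hearts exceeded all 9 other hearts at 13 of the 35 positions (37.1%), the 11 and also m.9465 and m.9550.

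The excesses at 24 weeks ran from 9.66 percent points at C12 and 9.60 at C13 to 2.64 at m.9499, 2.12 at m.9482, 1.26 at m.9564, 0.731 at m.9552, 0.477 at m.9565, 0.414 at C6, 0.359 at m.9500, 0.337 at m.9543 and 0.296 at m.9479. The lowest call was C6 (limma adjusted p = 0.0366), which was lost without active hearts 7 or 8 or control hearts 1, 2, 5, 10 or 12. Leaving out active heart 8 also ended the calls at m.9500 (0.0511), m.9543 (0.105) and m.9552 (0.194). Without vehicle heart 9 the 11 positions were called with m.9465 as well (12 in all). Just outside the calls, m.9550, 26 bp from C12 (S31L), held 0.112% in both active hearts at 24 weeks and 0.0125% and 0.0624% at 3 weeks (limma adjusted p = 0.0872 at 24 weeks).

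All 11 positions followed a T directly or across 1 other C. They were 8 of the 11 cytosines that follow a T and all 3 second cytosines of a TCC, and 0 of the 21 other C:G positions, against 31.4% of all positions. The median excess at 24 weeks was 0.414 percent points over cytosines that follow a T, 0.477 over second cytosines of a TCC and 0.00314 over the others, against 0.0311 over all 35. In the gain over time, 4 of 11, 1 of 3 and 0 of 21 rose, with medians of 0.446, 0.446 and 0.0133 percent points. The calls fell on both strands, with 7 of 24 positions with a C and 4 of 11 with a G on the reference strand higher at 24 weeks, and in all 3 regions, with 4 of 8 in the spacer, 2 of 8 in the TALE sites and 5 of 19 in the 5′ flank. At A:T positions, where this deaminase has no substrate, transitions were called at 0 of 69 positions (0%) in the gain and at 24 weeks, with 6 and 3 at an unadjusted p under 0.05 in limma.

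**Figure D3:**
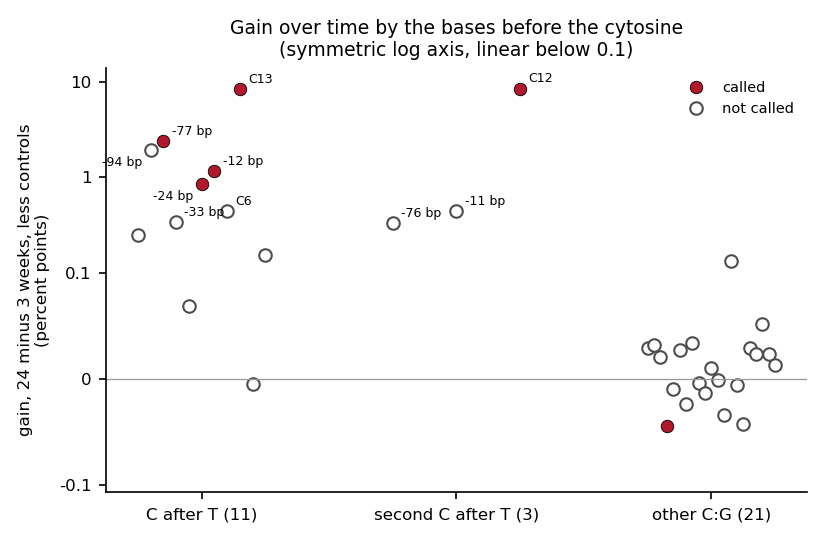
Gain over time in percent points (symmetric log axis) for each of 35 C:G positions, by whether the cytosine follows a T, is the second C of a TCC or neither, with filled points for positions called by limma. The 21 other C:G positions lie between -0.0447 and 0.133 percent points, and C12 and C13 stand at 8.49 and 8.38.

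Silent and coding changes were both among the 11. Editing is synonymous at m.9479 (codon 7), m.9482 (codon 8), m.9500 (codon 14) and m.9543 (codon 29), and the others change an amino acid of ND3 or, at C12 alone, end the protein. The pair of positions in codon 14 held unlike levels, with m.9500 at 0.237% and 0.574% in active hearts at 24 weeks and 0.0499% in each at 3 weeks.

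The second C of a TCC stood level with the first at the target and below it at both other runs. After subtraction of the mean of the time-matched controls, C12 stood at 101% ± 6.11 and 101% ± 4.32 of C13 in active hearts 7 and 8 (counting SE), and at 100% ± 13.4 and 84.7% ± 20.8 in active hearts 3 and 4. At the run m.9499 and m.9500 the second C stood at 10.9% ± 3.33 and 14.9% ± 2.57 of the first at 24 weeks, and at 7.69% ± 8.47 and 18.2% ± 20.7 at 3 weeks. At m.9564 and m.9565 it stood at 46.3% ± 9.94 and 32.9% ± 6.07 at 24 weeks and 27.9% ± 17.9 and 42.8% ± 76.3 at 3 weeks. In both 24-week hearts the 3 runs kept the same order by gaps wider than these errors. At 3 weeks in active heart 3 both other runs lay below the target by more than these errors, but their own order could not be told. In active heart 4 the run m.9499 and m.9500 lay below the target by more than these errors, while m.9564 and m.9565 could not be placed. Without vehicle heart 9 the 24-week values were 100% and 101% at the target, 10.8% and 14.8% at m.9499 and m.9500, and 46.1% and 32.9% at m.9564 and m.9565.

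The deposited codon outcomes carry the same question to single molecules, as the share of edited reads with both bases of codon 40 changed. Reads with G40K were 93.33% and 94.24% of edited reads in active hearts 7 and 8 at 24 weeks, and 84% and 77.57% in active hearts 3 and 4 at 3 weeks. The share with only 1 of the 2 bases edited (G40E or stop) was 6.67% and 5.76% at 24 weeks and 16% and 22.43% at 3 weeks, so the ranges did not overlap, and an exact permutation test of 2 against 2 cannot go below 0.333. Scaled to the excess at C12 counted here, G40K made up 6.59% and 12.0% of molecules at 24 weeks and 1.54% and 0.525% at 3 weeks. By the same scaling, singly edited molecules came to 0.471% and 0.732% at 24 weeks and 0.293% and 0.152% at 3 weeks. These values are of the size of the mean C12 level in controls, 0.564% at 24 weeks and 0.341% at 3 weeks. The shares may include such background, so no rise of singly edited molecules is read from them. Scaled to C13 instead, G40K made up 6.66% and 12.1% of molecules at 24 weeks and 1.58% and 0.659% at 3 weeks. The whole percents deposited at C12 with these shares were 11% and 20% in active hearts 7 and 8, above the levels counted here. Scaling to them would give larger G40K values at 24 weeks. The shares themselves were used as deposited, without subtraction of controls. The background share of singly edited reads in controls was not analysed here, so its part in the larger shares at 3 weeks and in the scaled values was not tested.

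The excess at 24 weeks as a multiple of that at 3 weeks depended on single hearts. The mean excess of active hearts at 24 weeks was 8.31 times that at 3 weeks at C12 and 7.88 times at C13, against 11.4 times at m.9499, 12.7 times at m.9482 and 12.1 times at m.9564. Without active heart 3 the folds were 15.6 at C12, 13.1 at C13, 19.2 at m.9499, 13.8 at m.9482 and 43.3 at m.9564, so m.9482 then lay below C12, and without active heart 4 they were 5.67, 5.64, 8.14, 11.8 and 7.05 in the same order. With 2 hearts in each group these folds carry no test, and the 3-week excesses at the last 3 positions are 0.231, 0.166 and 0.104 percent points.

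Expressed relative to C12 in the same heart, the excess at m.9499 was 25.3% ± 2.44 and 28.5% ± 1.89 in active hearts 7 and 8 at 24 weeks, and 19.0% ± 4.48 and 22.2% ± 9.12 in active hearts 3 and 4 at 3 weeks (counting SE). At m.9482 it was 20.6% ± 2.19 and 22.7% ± 1.67 at 24 weeks, and 10.5% ± 3.14 and 24.9% ± 8.97 at 3 weeks. At m.9564 it was 13.6% ± 1.72 and 12.8% ± 1.21 at 24 weeks, and 10.5% ± 3.14 and 4.70% ± 4.39 at 3 weeks. The 24-week values lay above the 3-week values at m.9499 and m.9564 and between them at m.9482, and the counting errors of active heart 4 span the difference at m.9499 and m.9482, as do those of active heart 3 at m.9564. At C6 the ratio was 4.30% ± 1.43 and 4.29% ± 0.905 at 24 weeks, and -3.66% ± 3.99 and 0.0% ± 11.8 at 3 weeks, so that active heart 4 cannot be placed there. Without vehicle heart 9 the 24-week ratios were 25.2% and 28.4% at m.9499, 20.9% and 22.8% at m.9482, 13.6% and 12.8% at m.9564 and 4.37% and 4.32% at C6.

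The 7 active hearts of mice injected as neonates and taken at 3 weeks give a check of the pattern at a shorter time. There the same fit called 13 of 35 positions higher than in 13 neonatal controls (37.1%), which were the 11 positions of the adult hearts with m.9550 and m.9574. Relative to C12, m.9499 ranged from 18.7% to 24.4% over the 7 neonatal hearts (median 21.0%), m.9482 from 12.9% to 16.0% (15.4%), m.9564 from 9.76% to 11.3% (10.3%), m.9552 from 2.46% to 4.42% (3.41%) and m.9565 from 0.189% to 1.02% (0.680%). At these 5 positions, and at m.9479 and m.9543, both 24-week adult hearts lay above the whole neonatal range. The counting SE of active heart 7 reached into that range at m.9499, m.9552 and m.9543, as did that of active heart 8 at m.9479. These positions were picked by their calls in the same 24-week hearts, which favours high adult ratios there, so no difference between the ages is read from them. At C6 (3.49% to 5.51%) and m.9500 (2.11% to 2.99%) the 24-week adult hearts did not both lie above the neonatal range. At m.9550 (1.92% to 3.64%), called in the neonatal hearts only, they lay below it, with 1.18% and 0.653%. Age at injection, sex, route and time cannot be told apart in this comparison, and an exact permutation test of 2 against 7 hearts cannot go below 0.0556.

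**Figure D4:**
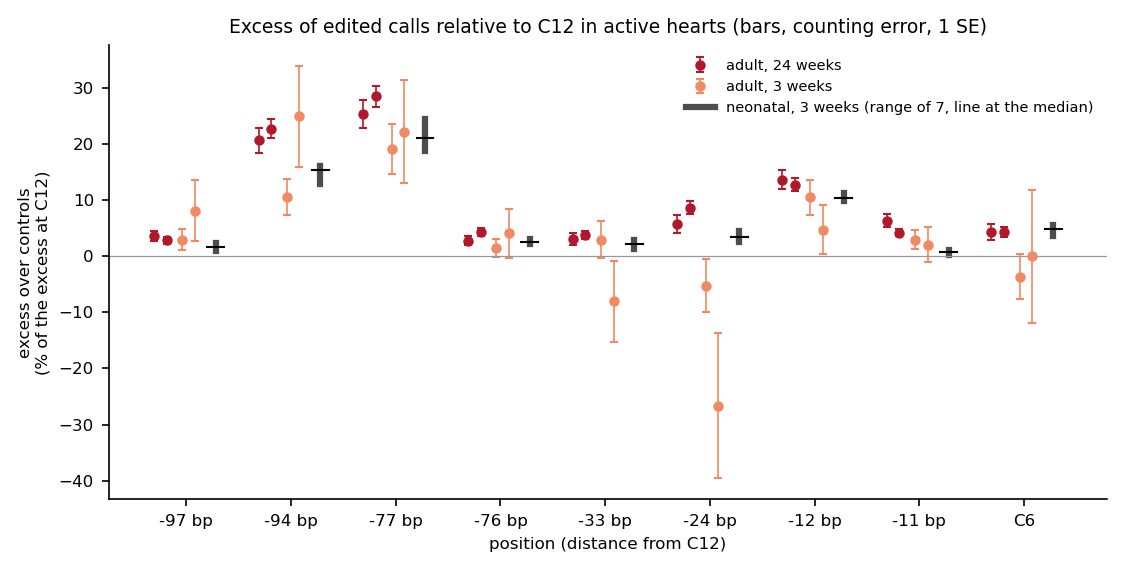
Excess of edited calls over the time-matched controls as a percent of the excess at C12 (y axis) at 9 positions, with a point for each adult active heart, counting SE as bars, and the range and median of 7 neonatal active hearts as thick bars with a line. At m.9499 (-77 bp) the adult hearts at 24 weeks stand at 25.3% and 28.5%, above the neonatal range of 18.7% to 24.4%, the lower of them by less than its counting SE.

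Summed over the 27 tested positions outside the spacer, the excess over controls was 5.25 ± 0.307 and 10.5 ± 0.397 percent points in active hearts 7 and 8 at 24 weeks, and 0.57 ± 0.193 and 0.0936 ± 0.177 in active hearts 3 and 4 at 3 weeks (counting SE). As a percent of the excess at C12 this was 76.3% ± 5.54 and 84.7% ± 4.10 at 24 weeks and 33.3% ± 11.8 and 15.1% ± 28.8 at 3 weeks. Nearly all of the sum came from cytosines that follow a T. Over the 7 of these outside the spacer, the sums stood at 73.1% ± 5.08 and 79.6% ± 3.81 of C12 at 24 weeks and at 39.9% ± 9.29 and 31.2% ± 20.5 at 3 weeks. The 19 positions outside the spacer that were not called at 24 weeks added 0.143 ± 0.131 and 0.218 ± 0.134 percent points at 24 weeks, and -0.166 ± 0.123 and -0.0910 ± 0.127 at 3 weeks. Their lack of a call was judged in the same 24-week hearts, so a small sum at that time was favoured in advance and is no separate evidence. The sum relative to C12 was thus higher in both hearts at 24 weeks than in both at 3 weeks, with the error of active heart 4 wider than its own value. It was 77.5% and 85.3% at 24 weeks without vehicle heart 9. Over positions read on the reverse strand alone, which leave out m.9482 and m.9499, the mean sum was 24.5% of C12 at 24 weeks and -27.1% at 3 weeks.

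Beyond the amplicon, the deposited mtDNA-wide mean of off-target C:G-to-T:A frequency put the active hearts in the same order. It was 0.217% and 0.302% in active hearts 7 and 8 at 24 weeks, and 0.0465% and 0.0341% in active hearts 3 and 4 at 3 weeks. The controls held 0.0477% (vehicle heart 9), 0.0355%, 0.0299% and 0.0291% at 24 weeks and 0.0265% to 0.0301% in 4 hearts at 3 weeks. These 4 include inactive heart 6 (0.0291%), which is left out of all amplicon values. The mean of active hearts was 7.30 times that of controls at 24 weeks and 1.43 times at 3 weeks, with no overlap with the controls of the same time. With 2 against 4 hearts the exact permutation p of 0.133 (two-sided) is the smallest that can be reached at both times. The fold at 24 weeks was 8.24 without vehicle heart 9. The 27 amplicon positions outside the spacer averaged 0.264% and 0.460% in active hearts at 24 weeks, 0.0884% and 0.0708% in active hearts at 3 weeks, 0.0480% to 0.0922% in controls at 24 weeks and 0.0625% to 0.0704% in controls at 3 weeks. On both measures the 3-week active hearts thus lay above their own controls, narrowly so on the amplicon mean, and within the range of the 24-week controls. Vehicle heart 9 was the highest control on both measures.

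**Figure D5:**
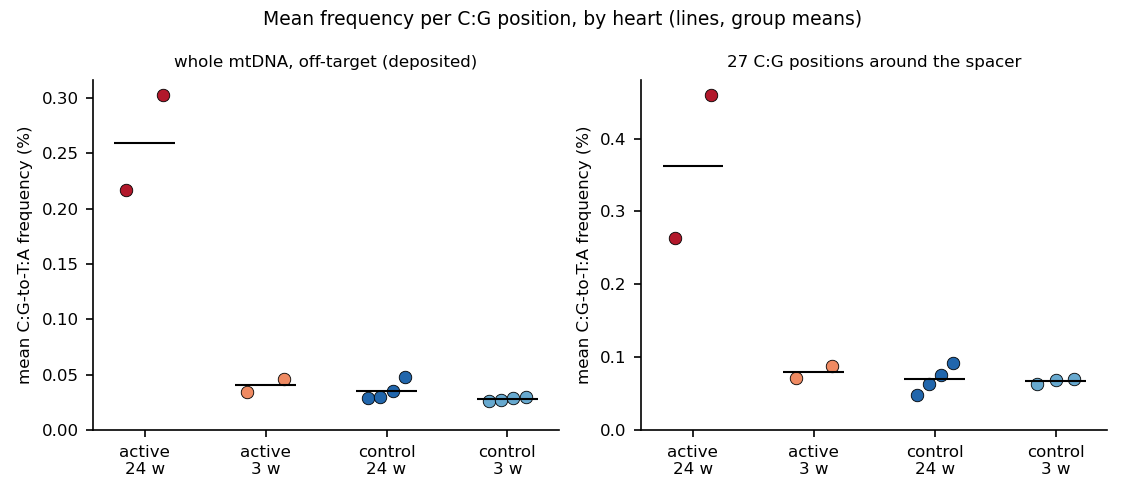
Mean C:G-to-T:A frequency in percent for each heart, as deposited for off-target sites of the whole mtDNA (left) and over 27 amplicon positions outside the spacer (right), with lines at the group means. Active hearts at 24 weeks stand at 0.217% and 0.302% mtDNA-wide, and all other hearts below 0.05%.

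The nuclear copies of this stretch of mtDNA (NUMTs) were sequenced in the same hearts as 2 amplicons with 5 and 2 cytosines. Every cytosine was listed at 0 in all adult hearts, active hearts at 24 weeks included, and neither unit nor depth is given for these values, so no upper limit can be set.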

How the data were processed

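The hearts were sequenced on MT-Nd3 amplicons after long-range PCR of mtDNA. The authors deposited raw base-call counts per position and strand, made with SAMtools mpileup and VarScan after Trim Galore and Bowtie2 against GRCm38, with cutadapt for the read patterns (versions not given in the sources used here). Counts stop near 8000, tested positions held 4550 to 8036 calls, and positions up to m.9506 were read on the forward strand and those from m.9532 on the reverse strand only. The deposited percent values are whole percents at 5 cytosines, codon-outcome percents of edited reads and the mtDNA-wide mean off-target percent, with coverage as the mean depth per position, from 3528 to 5928 in adult hearts. The unit of the deposited NUMT values, read here as another kind of percent, is not stated.

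Percent edited, Wilson intervals and excesses over the mean of time-matched controls were computed in Python 3.11.15 (NumPy 2.4.6, SciPy 1.17.1, pandas 2.3.3). log2 odds with 0.5 added to both counts were fitted with limma 3.58.1 in R 4.3.3 (4 groups, eBayes with trend, two-sided), with adjusted p under 0.05 as a call, over positions with at least 1000 calls outside the primers. Scripts were tested on simulated data. Position m.9461, where the count files and GRCm38 differ in base, was left out. Positions named are the 5 study cytosines, those called in the gain or at 24 weeks, and the next ones outside the call. The hearts, positions and lists were chosen with earlier results of these data known. PCR reads carry no molecular identifiers, so intervals cover counting error only. Limma p-values rest on a spread between hearts of different mice that is pooled over the 4 groups and drawn towards that of other positions in the same hearts. They can therefore fall below what an exact permutation test of so few hearts allows (0.133 for 2 against 4). The count sheet of 1 heart matched 2 samples and was left out.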

Additional observations from a re-analysis of the deposited data

Results flagged for a closer look

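In the control hearts, 4 of 16 sets of values tested held a heart far from the others, all 4 at 24 weeks. The sets were values of the 24-week controls and, for the mtDNA-wide mean, also of the 3-week controls. Chance flags about 1 in 20 such sets if they are independent, which sets from the same hearts are not. Vehicle heart 9 was the far heart, with 0.250% at m.9482, 0.187% at m.9499 and 0.112% at m.9564, above the other 3. At m.9470 the lowest control was inactive heart 12 with 0.0250%, which is 2 edited calls against 3 in each of the others.

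The change with time differed between active and control hearts at 6 positions by the limma interaction test, by 8.49 percent points at C12, 8.38 at C13, 2.41 at m.9499, 1.16 at m.9564, 0.858 at m.9552 and -0.0447 at m.9470.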

How the results depend on the processing

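The number of positions with a gain over time, 6 in either direction, was 11 with arcsine-transformed percents and 9 on percent points or with 1 added to both counts. It was 0 in limma without a trend of the variance, with a quasi-binomial model or with vehicle controls only, where 9, 5 and 6 had an unadjusted p under 0.05. Without subtraction of the controls the count, an alternative chosen after seeing the data, was 11, and in the same fit C6 was called with a gain of 0.498 percent points (limma adjusted p = 0.0149). The ratios, sums and mtDNA-wide fold without vehicle heart 9 and the folds of the excess without single hearts were also added after seeing the data. The 11 positions higher at 24 weeks were 7 of 22 on the reverse strand only. The 5 positions higher at 3 weeks stayed 4 or 5 in 7 of 12 alternatives. They became 0 with percent points, arcsine or the quasi-binomial model (0, 5 and 2 unadjusted) and 1 with vehicle controls only. On the reverse strand only they were 3, where m.9482 and m.9499 were not tested. The 1 control difference with time, at m.9482, became 0 in 9 of 12 alternatives, with 0 to 4 unadjusted. The reverse strand only, where m.9482 was not tested, is among the 9. C12 and C13 were not called with the quasi-binomial model (8.49 and 8.38 percent points) or vehicle controls only (8.39 and 8.19), nor C12 with inactive controls only (8.57). The deposited whole percents gave 13.75, 12.75 and 1.5 percent points at C12, C13 and C6. On the reverse strand only, which drops m.9482 and m.9499, the summed excess outside the spacer, 80.5% of C12 at 24 weeks and 24.2% at 3 weeks, was 24.5% and -27.1%.

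Leaving out 1 heart at a time gave 0 to 11 gains, 7 to 12 positions higher at 24 weeks, 1 to 5 at 3 weeks and 0 to 1 control differences, with gains of 5.72 to 11.3 percent points at C12, 5.62 to 11.1 at C13 and 0.327 to 0.564 at C6, and sums of 76.3% to 84.7% at 24 weeks and 15.1% to 33.3% at 3 weeks. The gain count was 0 without hearts 8, 4, 10 or 5 (6, 7, 8 and 8 at an unadjusted p under 0.05), 1 without hearts 11 or 12, and 11 without heart 1. Control differences with time were 0 without hearts 9, 10 or 1, the positions higher at 24 weeks were 7 without heart 8, and those at 3 weeks 1 without heart 3. A heart left alone in its group is assumed to vary like the other groups. At 24 weeks C12, C13, m.9479, m.9482, m.9499, m.9564 and m.9565 were called in every alternative that tested them and with any heart left out. No paired analysis was possible because every heart is a different mouse and mouse numbers are shared only between assays of the same heart. Calls at these depths cannot place levels under about 0.05%, and 10 positions between m.9507 and m.9531 were not tested.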
